A study of Homo sapiens with 4 samples.

Results

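The regions described here were the ADAR binding clusters that fell in annotated human pseudogenes. A cluster was counted as a member where its midpoint lay in a RefSeq GRCh38.p14 gene span whose biotype names a pseudogene, and in no protein-coding, long noncoding RNA (lncRNA) or small RNA gene span. By this rule 7119 of 534161 clusters of replicate 1 (1.33%), 2178 of 155848 clusters of replicate 2 (1.40%) and 25 of 1717 peaks of the authors' combined list (1.46%) were members. The rule used position alone and no measured value.

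The libraries came from untreated K562 cells, an established chronic myeloid leukaemia line with erythroid features, and were made by enhanced crosslinking and immunoprecipitation (eCLIP), in which RNA that ultraviolet light has linked to a protein is recovered with an antibody against it and sequenced. An ADAR1 antibody gave 2 immunoprecipitated (IP) libraries, and 2 input libraries were made without it, numbered as replicates 1 and 2. The labels do not state whether the replicates came from different cultures, so the spread between them may be technical. Clusters of 1 replicate share their libraries, so each list gave counts and shares but no test across samples, and the exact binomial intervals below cover counting error only.

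ADAR (adenosine deaminase acting on RNA) edits paired RNA by turning adenosines into inosines, and in human transcripts such pairing often forms where inverted repeats pair within introns and noncoding stretches. Pseudogenes are copies of genes that no longer make the original product. Some arose by duplication of a whole locus and keep introns, others by reverse transcription of an RNA, and a minority are transcribed. Because a pseudogene can be nearly identical to its source gene, short reads may be placed on either copy, and every value below for a pseudogene with a close copy carries that uncertainty.

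For each cluster the deposited lists give a log2 fold of IP over input and a −log10 p, both the authors' own values for that cluster. A cluster was called enriched where the log2 fold and the −log10 p were each at least 3. The folds behaved as ratios of whole reads, and read ratios are given below as IP to input reads in lowest terms, so the true numbers can be a multiple of them. Among enriched clusters with 1 input read in lowest terms, the fewest IP reads were 27 in replicate 1 and 5 in replicate 2. The IP library was 3.33 times as deep as its input in replicate 1 and 0.553 times as deep in replicate 2, as far as the spacing of the folds shows. Counts of enriched clusters are therefore not comparable in size between the replicates.

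In replicate 1, 74 of 7119 pseudogene clusters were enriched (1.04%), and the background over all clusters of that list was 1.39%. In replicate 2, 295 of 2178 pseudogene clusters were enriched (13.5%), and the background over all clusters was 12.8%. The share thus lay a little below the background in one replicate and a little above it in the other. Clusters in lncRNA genes stood at 1.66% in replicate 1 and 9.79% in replicate 2, and clusters in protein-coding genes at 1.36% and 13.1%. The median log2 fold of pseudogene clusters was 0.0027 in replicate 1, against 0.07 over all clusters. In replicate 2 it was 1.85 for pseudogene clusters and 1.85 for all clusters. Pseudogene clusters were 49 bases wide at the median in replicate 1 and 58 bases in replicate 2, against 47 and 59 bases over all clusters.

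The ratios behind a call, taken in lowest terms, differed little between pseudogenes and the rest. They do not give the true read numbers. Of the enriched pseudogene clusters, 63.5% in replicate 1 and 53.6% in replicate 2 rested on a ratio with 1 input read in lowest terms, against 66.6% and 56.3% of all enriched clusters. Among clusters whose ratio had at least 10 input reads, 1 of 396 pseudogene clusters was enriched in replicate 1 (0.253%), against 0.674% of all such clusters. In replicate 2, 13 of 255 such pseudogene clusters were enriched (5.10%), against 2.62% of all such clusters. The direction of this difference was not the same in the replicates.

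The members were spread over 814 of the 17088 pseudogenes with a span in the annotation. Pseudogenes annotated as transcribed made up 1268 of the 17088 and 377 of the 814, and they held 5984 members in replicate 1 (84.1%) and 1904 in replicate 2 (87.4%). In replicate 1, 341 of the 793 pseudogenes with a cluster had a single cluster, while the 96 with 20 or more held 4802 members. Strand was uniform within most loci: of the 242 pseudogenes with at least 5 clusters in replicate 1, 229 had all of them on 1 strand, and of the 99 in replicate 2, 95 did. In replicate 1, 6 of the 242 had under 80% of their clusters on 1 strand, among them GOLGA2P10, named after its values were seen, with 8 of 25 clusters on the plus strand.

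The peaks that the authors' combined list placed in pseudogenes were few and lay in 10 genes, all annotated as transcribed. LOC100420587 held 5 peaks, LOC112267918 held 4, SMPD4BP, AFG3L1P and ABO held 3 each, UBBP4 and TPTEP1 held 2 each, and SMG1P1, LOC100288637 and C19orf48P held 1 each. The log2 fold in that list ran from 3.20 to 6.50 over the 25 peaks, with a median of 4.34, against 4.62 over all 1717 peaks. Joining peaks that touched left 15 sites. All 25 peaks overlapped an enriched cluster of replicate 2, and 18 overlapped an enriched cluster of replicate 1. The fold of the cluster with the longest overlap was higher in replicate 2 for 24 of the 25, the exception being the middle peak of AFG3L1P.

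**Figure D1:**
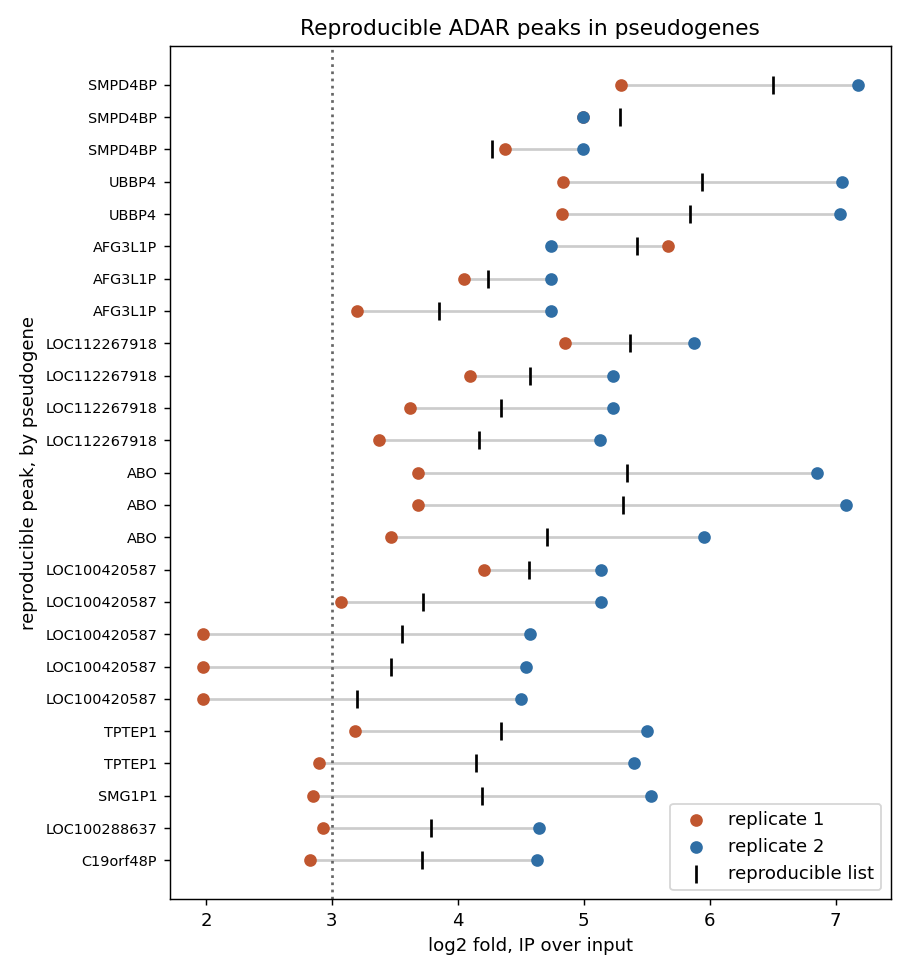
Log2 fold of IP over input (horizontal axis) for each of the 25 peaks of the authors' combined list in pseudogenes (rows), with the longest-overlapping cluster of replicate 1 in orange, that of replicate 2 in blue and the combined value as a black tick. The replicate 2 point lies to the right of the replicate 1 point in 24 of the 25 rows, and the dotted line marks the threshold of 3.

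SMPD4BP carried the highest peak of the set. Its name marks it as a relative of SMPD4, which encodes a neutral sphingomyelinase. The peak lay on the plus strand of chromosome 2 at 131513798 to 131513895, with a log2 fold of 6.50 in the combined list. The overlapping cluster had a log2 fold of 5.29 in replicate 1 (261 IP to 2 input reads) and 7.18 in replicate 2 (80 to 1), the highest value of any pseudogene cluster in replicate 2. A neighbouring site at 131514929 to 131515005 had log2 folds of 4.99 in replicate 1 and 5.00 in replicate 2. Over its whole span SMPD4BP had 5 enriched of 51 clusters in replicate 1 and 10 of 21 in replicate 2, against backgrounds over all clusters of 1.39% and 12.8%. Both replicates were high at the same positions, on the same strand. These positions were taken from the list that combines both replicates, so that is a description and no test.

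UBBP4 is named as a pseudogene of UBB, which encodes a ubiquitin precursor. Its peaks lay on the plus strand of chromosome 17 between 22105150 and 22105232. The cluster log2 fold there was 4.84 in replicate 1 (95 to 1) and 7.05 in replicate 2 (439 to 6). The site stood out within a long locus: the annotated span covers 114402 bases, and the 201 other clusters of replicate 1 had a median log2 fold of −0.73 with none enriched. In replicate 2, 7 of the 94 other clusters were enriched and their median log2 fold was 0.58. Over all clusters 1.39% were enriched in replicate 1 and 12.8% in replicate 2, so the other UBBP4 clusters lay below the background in both.

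ABO encodes the glycosyltransferase that makes the A and B blood-group antigens, and it is not usually described as a pseudogene. This assembly's annotation gives it the biotype of a transcribed pseudogene, and it is a member by that rule only. Its peaks lay on the minus strand of chromosome 9 at 133262985 to 133263053 and 133263231 to 133263285. At the first site the log2 fold was 3.69 in replicate 1 (300 to 7) and 7.08 in replicate 2 (524 to 7). ABO had 6 enriched of 67 clusters in replicate 1, the most of any member gene, and 9 of 35 in replicate 2. The shares over all clusters were 1.39% and 12.8%. Without it the combined list held 22 pseudogene peaks.

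LOC112267918 is a short transcribed pseudogene of 5214 bases on chromosome 7, and nearly all of its clusters were enriched. Its 4 peaks lay on the plus strand between 45813225 and 45813407. Enriched clusters made up 4 of 5 in replicate 1 and 5 of 5 in replicate 2, against 1.39% and 12.8% over all clusters. The highest log2 fold was 4.85 in replicate 1 (1151 to 12) and 5.88 in replicate 2 (521 to 16). Both ratios had more than 10 input reads in lowest terms.

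AFG3L1P is related by name to AFG3L2, which encodes a subunit of a mitochondrial protease. Its peaks lay side by side on the plus strand of chromosome 16 from 89988201 to 89988321. The 3 clusters of replicate 1 there had log2 folds of 4.05, 5.67 and 3.20, with 55 to 1, 169 to 1 and 61 to 2 reads. Replicate 2 had a single broad cluster at 4.74 (74 to 5). No other AFG3L1P cluster was enriched in replicate 1, while 5 of the 19 others were in replicate 2. The backgrounds over all clusters were 1.39% and 12.8%.

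LOC100420587 had the most clusters of any pseudogene, 346 in replicate 1 and 117 in replicate 2, over a span of 292307 bases on chromosome 19. Its peaks fell at a pair of sites on the minus strand. At 28498488 to 28498645 the log2 fold reached 4.21 in replicate 1 (308 to 5) and 5.14 in replicate 2 (39 to 2). At 28531056 to 28531125 the replicates parted. The cluster overlapping all 3 peaks had a log2 fold of 1.97 in replicate 1 (196 to 15) and another touching the first peak had 2.38, both below the threshold, while the replicate 2 clusters had 4.54 (424 to 33), 4.57 (224 to 17) and 4.50 (25 to 2).

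The remaining peaks rested mostly on replicate 2. TPTEP1, named for TPTE, which encodes a transmembrane protein related to phosphatases, had peaks on the plus strand of chromosome 22 from 16607926 to 16607992. Its log2 folds there were 2.90 and 3.18 in replicate 1 and 5.40 and 5.50 in replicate 2. SMG1P1 is named for SMG1, which encodes a kinase of nonsense-mediated decay. Its peak on chromosome 16 at 22477930 to 22478007 had a log2 fold of 2.85 in replicate 1 (24 to 1) and 5.53 in replicate 2 (205 to 8). LOC100288637 on chromosome 15, at 30663131 to 30663205, had a pair of clusters in replicate 1, at 2.93 and 3.31, and a single cluster at 4.64 in replicate 2. C19orf48P on chromosome 19, at 50802488 to 50802566, had 2.82 in replicate 1 and 4.63 in replicate 2. At SMG1P1 and C19orf48P the clusters of replicate 1 fell under the fold threshold, and at LOC100288637 a cluster passed on fold but was short on p.

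Most combined-list sites were local maxima of their neighbourhood. Peaks within 100 bases of each other gave 13 sites, and clusters within 500 bases of a site were taken as its flanks. The highest fold in the site exceeded the highest in the flanks at 10 of 11 sites with flanking clusters in replicate 1 and at 7 of 10 in replicate 2. The authors drew these peaks from the same folds, so this describes the sites and tests nothing.

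**Figure D2:**
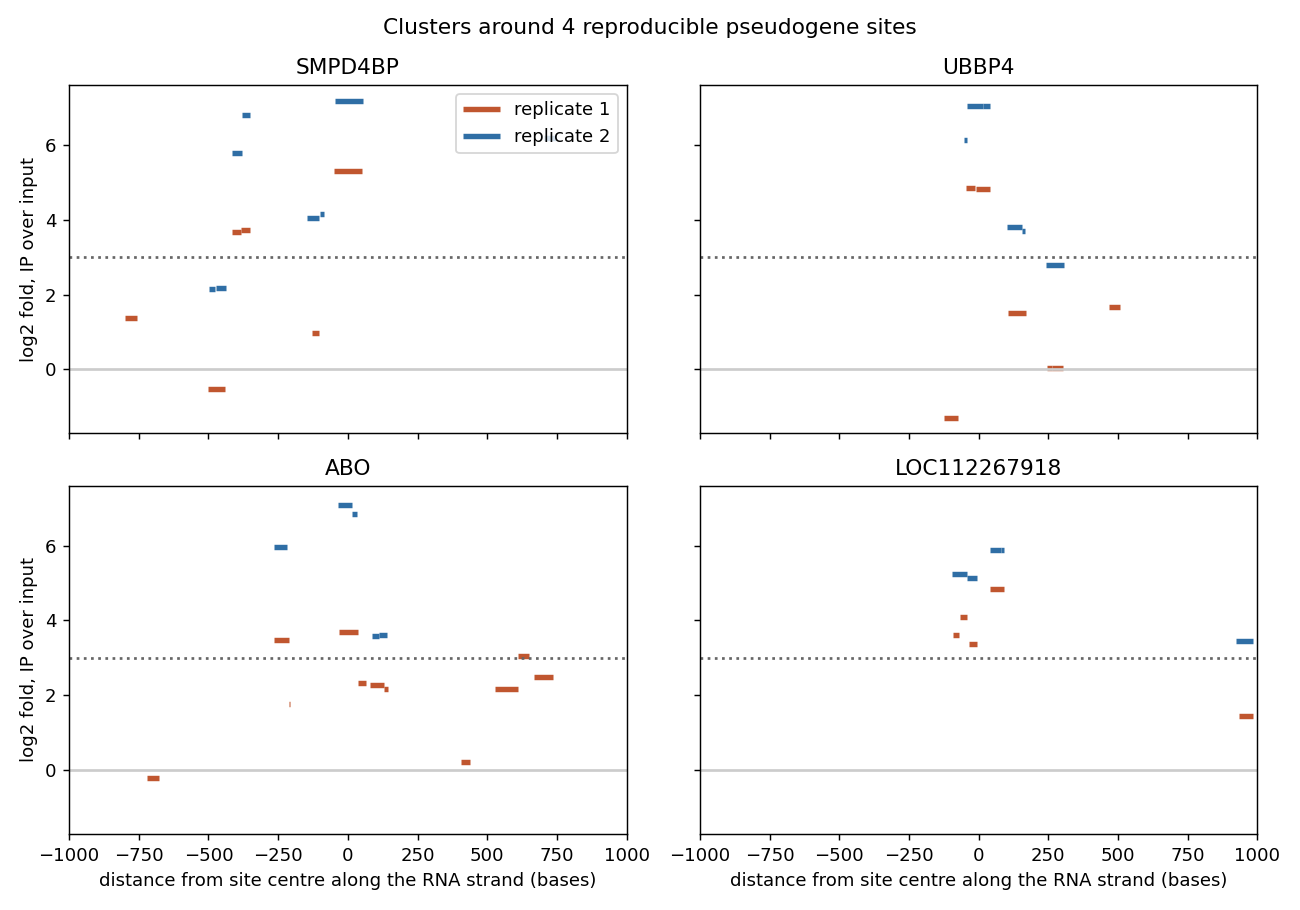
Log2 fold of IP over input (vertical axis) for all clusters on the same strand within 1000 bases of the centre of a site in SMPD4BP, UBBP4, ABO and LOC112267918, against distance along the RNA (bases), with replicate 1 in orange, replicate 2 in blue and bar length showing cluster width. At each site the highest cluster of each replicate lies above the dotted threshold of 3, and that of replicate 2 is the higher. The exact centre of the LOC112267918 site falls between clusters.

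Beyond the combined list, enrichment in both replicates was uncommon. Enriched clusters were found in 39 pseudogenes in replicate 1, in 100 in replicate 2 and in 22 in both. These 22 were 7.05% of the 312 pseudogenes with a cluster in each replicate. The background over all gene spans was 13.9%, with 16.3% for protein-coding genes. Such shares depend on how many clusters a gene holds, which was not matched. Counted by pairs of overlapping clusters, 2.08% of pseudogene pairs were enriched in both replicates, against 2.44% of all pairs. Of the 22, 8 were in the combined list. The 10 pseudogenes with most enriched clusters held 33 of the 74 in replicate 1 and 105 of the 295 in replicate 2.

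Several pseudogenes held many enriched clusters without a peak in the combined list. The backgrounds over all clusters were 1.39% in replicate 1 and 12.8% in replicate 2. DPY19L1P1, a relative by name of the C-mannosyltransferase gene DPY19L1, had 3 enriched of 82 clusters in replicate 1, with a highest log2 fold of 4.55, and 10 of 34 in replicate 2, with a highest of 5.38. SUZ12P1, named for the Polycomb gene SUZ12, had 0 of 153 in replicate 1 and 13 of 109 in replicate 2, the most of any member gene in replicate 2. SUZ12P1 also had many clusters, and its enriched share in replicate 2 lay slightly below the background. MRPL45P2, named for a protein gene of the mitochondrial ribosome, had 0 of 67 and 12 of 46, with highest log2 folds of 2.91 in replicate 1 and 6.50 in replicate 2. Enriched clusters of SUZ12P1 and MRPL45P2 were thus found in replicate 2 alone. The replicates differed in IP depth relative to input, and the cause was not tested.

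The small RNA pseudogenes behaved unlike the other groups in replicate 1. They had 21 enriched of 116 clusters there (18.1%), against a background of 1.39% over all clusters, with a median log2 fold of 1.58. In replicate 2 none of their 13 clusters was enriched, and the median log2 fold was 0.09. With a background of 12.8% in replicate 2, 13 clusters are too few for that count to be read as a difference. The 21 clusters lay in 12 pseudogenes. None of the 21 was overlapped by an enriched cluster of replicate 2, and 5 were overlapped by any cluster, against 41.9% and 64.0% of all enriched clusters of replicate 1. The small RNA pseudogenes were all of the plain pseudogene biotype, whose share of enriched clusters in replicate 1 was 2.64% with them and 0.883% without them.

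Within that group, copies of 7SK, the RNA that holds the elongation factor P-TEFb inactive, gave 14 of 50 clusters enriched in replicate 1, in 7 of 35 pseudogenes, and 0 of 7 in replicate 2. The backgrounds over all clusters were 1.39% and 12.8%, and 7 clusters are too few to set against the second. The median log2 fold of the 7SK copies was 1.85 in replicate 1 and 0.21 in replicate 2. RN7SKP255 led with 3 enriched clusters and a highest log2 fold of 3.15 in replicate 1. Its replicate 2 clusters, at up to 0.21, lay elsewhere in the copy, where replicate 1 had 1.86 and 1.80. RN7SKP175, named after its values were seen, had enriched clusters at 4.11 and 4.23 in replicate 1, and an overlapping cluster at 3.18 in replicate 2 (5 to 1) that was short on p. Elsewhere in the same copy, clusters lay below input, at −0.16 in replicate 1 (212 to 71) and −3.44 in replicate 2 (3 to 59). RN7SKP246, also named after its values were seen, had 1.85 in replicate 1 and 3.18 in replicate 2, short on p. The functional gene RN7SK itself had 3 clusters with a highest log2 fold of −2.56 in replicate 1 and 4 clusters with a highest of −2.72 in replicate 2. In replicate 1 the median cluster of the copies thus lay above input and the clusters of the source gene below it. Whether reads of the source RNA were placed on the copies was not tested.

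The other small RNA families were named after their values were seen. Copies of U6, a spliceosomal RNA, gave 3 enriched of 20 clusters in replicate 1, where the background over all clusters was 1.39%. RNU6-3P, on the minus strand of chromosome X at 141118033 to 141118087, had a log2 fold of 8.41 there with a −log10 p at the cap of 400 (3398 to 3), the highest fold of the whole replicate 1 list. In replicate 2 its cluster had a log2 fold of 3.66 with a −log10 p of 2.4 (7 to 1), short of the p threshold. Copies of 5S ribosomal RNA gave 2 enriched of 20 clusters, both in RNA5SP481 with a highest log2 fold of 4.81, and copies of 5.8S ribosomal RNA gave 2 of 3, both in RNA5-8SP2 at 4.51. Copies of 7SL, U1 (its variants included), U2, U5, U6atac and Y RNA gave no enriched cluster among 3, 10, 4, 3, 1 and 2 clusters of replicate 1. Such numbers are too few to set against that background.

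**Figure D3:**
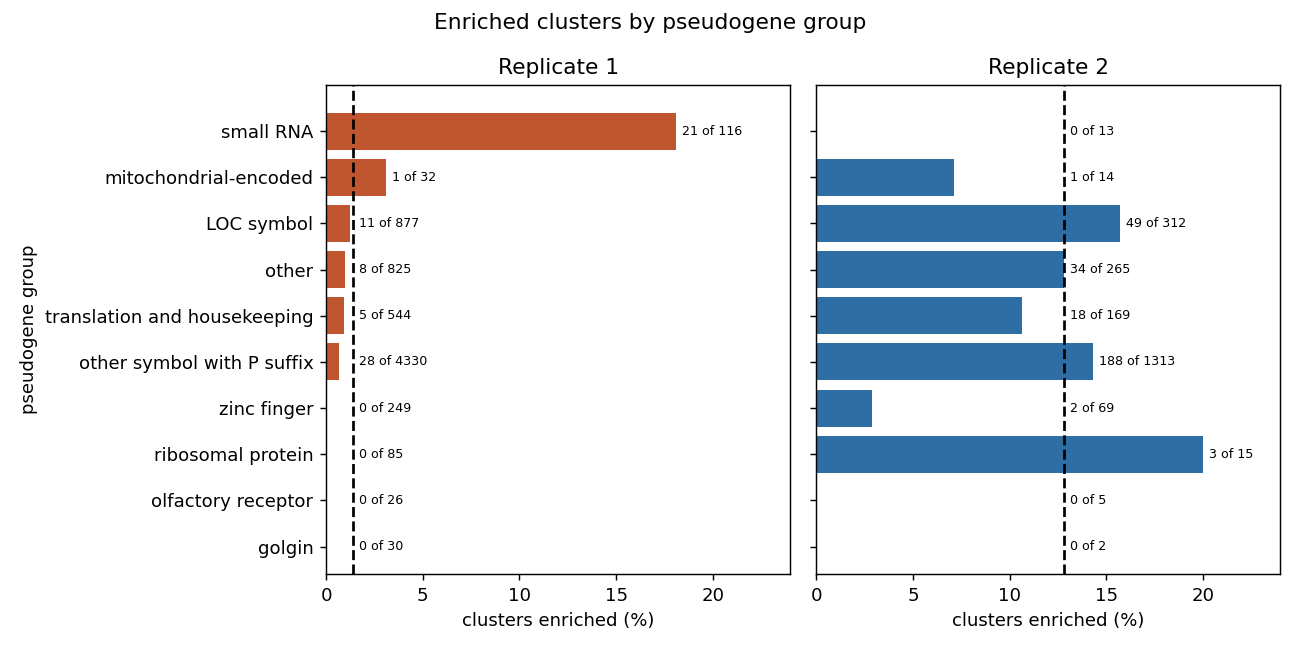
Percent of clusters enriched (horizontal axis) for 10 groups of pseudogenes defined by symbol (rows), in replicate 1 on the left and replicate 2 on the right, with the counts printed and a dashed line at the background of 1.39% or 12.8%. The small RNA bar reaches 18.1% in replicate 1, while none of 13 clusters was enriched in replicate 2.

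Loci with a P-suffix symbol outside the named families held the most clusters. That group had 28 enriched of 4330 clusters in replicate 1 (0.647%) and 188 of 1313 in replicate 2 (14.3%), led by SMPD4BP, where the backgrounds were 1.39% and 12.8%. Pseudogenes known by a LOC symbol had 11 of 877 (1.25%) and 49 of 312 (15.7%), led by LOC100420587. Pseudogenes of translation and housekeeping genes had 5 of 544 (0.919%) and 18 of 169 (10.7%), led by UBBP4. The remaining symbols, led by ABO, had 8 of 825 (0.970%) and 34 of 265 (12.8%). In replicate 1 all 4 shares lay below the background, and in replicate 2 they lay on both sides of it or close to it.

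The other groups held fewer clusters than the groups just described. Against backgrounds of 1.39% and 12.8%, all but the zinc finger group allow little to be read from their counts. Ribosomal protein pseudogenes had 0 of 85 clusters enriched in replicate 1 and 3 of 15 in replicate 2 (20.0%), of which RPL32P3, on chromosome 3, held 2. Zinc finger pseudogenes had 0 of 249 and 2 of 69 (2.90%), below the background in each replicate, a difference that was not tested. ZNF767P led them, with a highest log2 fold of 3.12 in replicate 1, where its −log10 p fell short, and 3.31 in replicate 2. Nuclear copies of mitochondrial genes had 1 of 32 and 1 of 14, the second in MTND6P22 at a log2 fold of 4.66. Olfactory receptor pseudogenes, led by OR7E12P, had 0 of 26 and 0 of 5. Golgin (GOLGA2P5), histone (H3P6) and transfer RNA (TRNAL47P) pseudogenes had no enriched cluster among 30, 2 and 3 clusters in replicate 1, and none among 2, 1 and 0 in replicate 2.

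Where the symbol names a source gene, pseudogene and source could be set side by side. The rule took a pseudogene whose symbol is that of a protein-coding gene followed by P and an optional number, which gave 383 pseudogenes of 247 coding genes. In replicate 1, 21 of 3755 clusters of these pseudogenes were enriched (0.559%), against 230 of 10677 clusters of their coding genes (2.15%). In replicate 2 it was 160 of 1154 (13.9%) for the pseudogenes, against 296 of 1840 (16.1%) for the coding genes. The pseudogene share was lower in both replicates, and the difference was not tested. Over all clusters the shares were 1.39% and 12.8%. In replicate 1, ACTB (34 enriched of 45 clusters) and PTMA (34 of 44) held many of the 230. Each had 0 of 12 in replicate 2, and both were named after their values were seen. Of the 13 such pseudogenes with an enriched cluster in replicate 1, 4 had a coding gene with one as well. In replicate 2 it was 33 of 55.

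Some pseudogenes had higher folds than the coding gene they are named for. UBBP4 reached log2 folds of 4.84 in replicate 1 and 7.05 in replicate 2, against 2.32 and 1.44 for UBB, which had 6 clusters and 2 clusters with none enriched. DPY19L1P1 reached 4.55 and 5.38, against 2.07 and 2.44 for DPY19L1. TPTEP1 reached 3.18 and 5.50, against 1.59 and 4.18 for TPTE. MRPL45P2 reached 2.91 and 6.50, against 1.44 and 3.18 for MRPL45. In each of these pairs the pseudogene was the higher in both replicates, although the pairs are named because the pseudogene held many enriched clusters. Each pseudogene also had more clusters than its coding gene, so its highest fold was drawn from more values. In replicate 2, UBBP4 had 96 clusters against 2 for UBB, and DPY19L1P1 had 34 against 4. TPTEP1 had 34 against 9 and MRPL45P2 had 46 against 15.

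Elsewhere both copies had enriched clusters in replicate 2, where the background was 12.8%. SMPD4 had 3 enriched of 39 clusters in replicate 1 and 10 of 28 in replicate 2, with 2 peaks in the combined list at up to 5.71. Its relative SMPD4BP had 5 of 51 and 10 of 21, and SMPD4P1 on chromosome 22, named after its values were seen, had 0 of 41 and 10 of 20. Enriched clusters of replicate 2 were thus found at all 3 loci of this family. SUZ12P1 had 0 of 153 and 13 of 109, against 0 of 120 and 7 of 67 for SUZ12. SMG1P1 had 0 of 20 and 1 of 3, against 1 of 159 and 11 of 45 for SMG1. Reads shared by such copies could add to either locus, which was not tested.

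**Figure D4:**
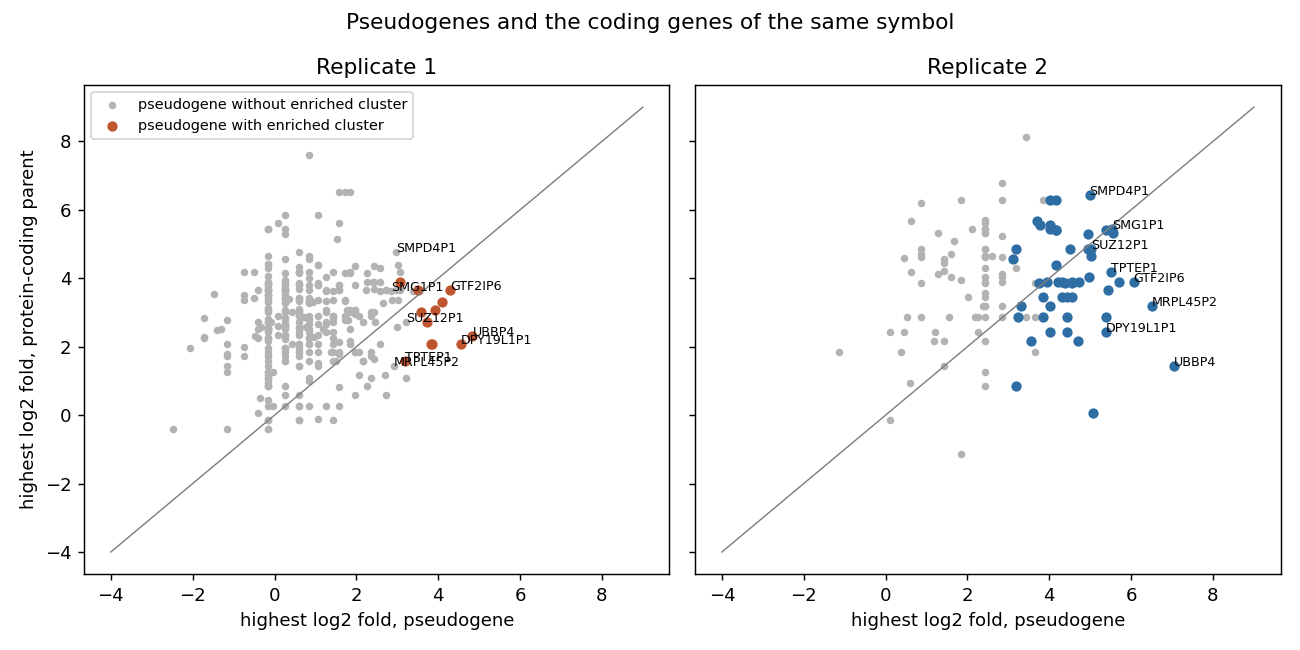
Highest log2 fold of each pseudogene (horizontal axis) against that of the protein-coding gene it is named for (vertical axis), in replicate 1 on the left (355 pairs) and replicate 2 on the right (130 pairs), with coloured points for pseudogenes with an enriched cluster and the diagonal marking equal folds. UBBP4 (7.05 against 1.44 for UBB in replicate 2) and DPY19L1P1 lie well below the diagonal in both panels.

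How far the replicates shared their enriched clusters was measured by overlap of at least 1 base on the same strand. Of the 74 enriched pseudogene clusters of replicate 1, 37 were overlapped by an enriched cluster of replicate 2 (50%, exact 95% interval 38.1% to 61.9%), against 41.9% of all enriched clusters of replicate 1 (40.8% to 43.0%). Without the small RNA pseudogenes, a choice made after seeing the data, it was 37 of 53 (69.8%, 55.7% to 81.7%). None of their enriched clusters was overlapped in this way, so leaving them out could only raise the share. The 41.9% over all enriched clusters was not trimmed likewise, so the 69.8% is not comparable with it. Of the 295 of replicate 2, 32 were overlapped by an enriched cluster of replicate 1 (10.8%, 7.54% to 15.0%), against 14.0% of all (13.5% to 14.5%). Overlap by any cluster of replicate 1 held for 87.1% of the 295, against 88.4% of all enriched clusters of replicate 2.

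Pairing overlapping clusters one to one gave 1298 pairs in 253 pseudogenes. The log2 fold of replicate 2 was higher in 1074 of them (82.7%), with a median difference of 1.46, against 1.36 over all 87894 pairs of the lists. Across the pseudogene pairs Pearson's r was 0.52 and Spearman's rho 0.47, against 0.52 and 0.48 over all pairs. These are descriptions across clusters that share libraries and depth. Both clusters were enriched in 27 pairs, replicate 1 alone in 10, replicate 2 alone in 186 and neither in 1075. The pairs enriched in both were 2.08% of the pseudogene pairs, against 2.44% of all pairs. Where both ratios had at least 5 input reads, 240 pairs were left and the median difference was 0.96, against 0.74 over all such pairs.

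**Figure D5:**
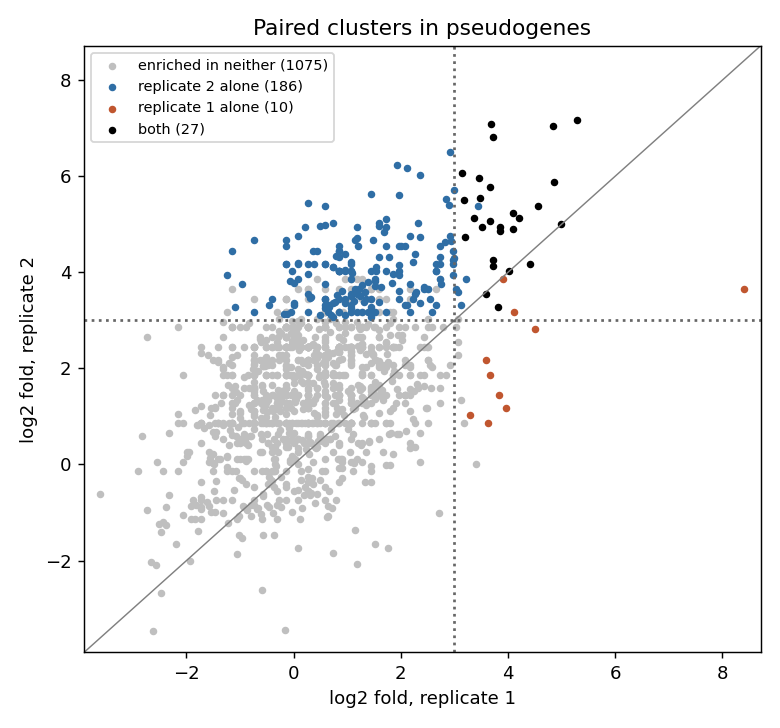
Log2 fold of replicate 2 (vertical axis) against replicate 1 (horizontal axis) for the 1298 overlapping cluster pairs in pseudogenes, coloured by the replicate in which the cluster was enriched. Most points lie above the diagonal of equal folds, and the isolated point at the right is RNU6-3P, at 8.41 in replicate 1 and 3.66 in replicate 2.

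The labelled cell line was checked through the genes in which clusters lay. Clusters were found in the erythroid genes TFRC (156 in replicate 1, 54 in replicate 2) and EPB41 (412 and 248), and in the globin genes HBG1, HBG2, HBA1, HBA2 and HBE1 with none enriched. The hepatocyte genes ALB, APOA1 and TTR and the T cell gene CD3E had no cluster, and PTPRC had 57 in replicate 1 and 0 in replicate 2. The labels call the cells lymphoblasts, and the lymphocyte genes PTPRC and CD3E had no enriched cluster in either replicate.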

How the data were processed

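The tools named in the submitters' processing notes are cutadapt 1.9 and STAR 2.4.0i, beside more than a single genome build. No source used here names the cluster caller. Each deposited cluster has a log2 fold of IP over input and a −log10 p, both computed by the authors, the −log10 p capped at 400. The 3 lists hold clusters of replicate 1, of replicate 2 and of both combined. No source used here says how the combined list was made.

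Clusters were assigned by midpoint to RefSeq GRCh38.p14 spans, which carried no strand or exons. Coordinates count from 1. Read ratios were recovered from the spacing of the folds, taking the commonest fold as 3 IP reads to 1 input read; 99.9% of folds in replicate 1 and 99.7% in replicate 2 fell on such steps (denominators up to 200, tolerance 1e-07). Absolute library depth is not in the lists. Shares carry exact Clopper-Pearson 95% intervals for counting error only. Python 3.11.15, pandas 2.3.3 and SciPy 1.17.1 were used, and the steps were tested on simulated data.

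Members and gene lists were chosen with earlier results of these data known. Named were the pseudogenes of the combined list, the 5 with most enriched clusters and the 3 with most clusters per replicate, the leader of each group, and their coding source genes; others are marked. Thresholds, overlap rules, span rules and left-out replicates were varied. Some of the marker genes checked are not reported here.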

Additional observations from a re-analysis of the deposited data

How the results depend on the processing

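Over 8 results and 42 alternatives, 21 values stayed close to the reported one (a count within 1.5 times) and 21 moved. The 74 enriched pseudogene clusters of replicate 1 became 136 at a log2 fold of at least 2, 30 at 4, 45 at a −log10 p of at least 5 and 203 when clusters also lying in another gene span were counted. The 295 of replicate 2 became 172 at a log2 fold of 4 and 192 at a −log10 p of 5. Requiring at least 2 input reads in lowest terms, an alternative chosen after seeing the data, left 27 and 137. The share overlapped by the other replicate went to 67.6% in replicate 1 and 87.1% in replicate 2 when any cluster counted, and to 69.8% in replicate 1 without small RNA pseudogenes, also chosen after seeing the data. The median log2 fold went to −0.41 in replicate 1 and 1.38 in replicate 2 with at least 2 input reads, and to 3.15 and 3.82 at a −log10 p of 5. Touching peaks merged turned 25 combined-list peaks into 15. The 22 pseudogenes enriched in both replicates became 37 at a log2 fold of 2, 10 at 4 and 13 at a −log10 p of 5, and ranged from 39 to 100 with one replicate left out, since a single list then sufficed. The cause of the other shifts was not tested. No paired analysis was possible because each replicate has 1 list already set against its own input. The alternative that keeps clusters on the annotated strand was not run, since the annotation used here gives no strands. Absolute depth is unknown, and near-identical copies limit every locus with a close relative.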

Other observations

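Several chromosomes held more pseudogene clusters than their share of all clusters. In replicate 1, chromosome 22 held 6.90% of members against 2.53% of all clusters, and chromosome 15 held 9.24% against 3.80%. In replicate 2, chromosome 17 held 13.8% against 6.0%. Chromosome 7 had the most members. It had 1037 members in replicate 1 (14.6%) and 397 in replicate 2 (18.2%), against 6.52% and 7.08% of all clusters. Its pseudogenes held 14 of the 74 enriched clusters of replicate 1 (18.9%) and 67 of the 295 of replicate 2 (22.7%), against 6.59% and 7.11% of all enriched clusters. Within chromosome 7 the enriched share of pseudogene clusters was 1.35% in replicate 1 and 16.9% in replicate 2, against 1.40% and 12.9% for all its clusters. Several of its loci are relatives by name of genes on the same chromosome: RNF216P1 had 8 enriched of 18 clusters in replicate 2 and PMS2P3 had 2 of 13, against 14 of 62 for RNF216 and 2 of 13 for PMS2. Both were named after their values were seen.

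The genes of this paragraph were also named after their values were seen. The 13 pseudogenes named for GTF2I, which encodes the transcription factor TFII-I, had 3 enriched of 137 clusters in replicate 1 (2.19%) and 17 of 49 in replicate 2 (34.7%), against backgrounds of 1.39% and 12.8%. Enriched clusters lay in 2 of them in replicate 1 and in 7 in replicate 2, and 6 had none in either. GTF2IP6 on chromosome 17 had 2 enriched of 27 clusters in replicate 1 and 5 of 7 in replicate 2, with a highest log2 fold of 6.06. GTF2IP20 on chromosome 1 had 0 of 25 and 5 of 13, and GTF2IP3 on chromosome 13 had 1 of 6 and 1 of 3. GTF2I itself, on chromosome 7, had 2 of 123 and 3 of 33, with a highest log2 fold of 3.90 in replicate 2. PARP4P3 had 3 of 12 and 3 of 9, against 0 of 81 and 8 of 29 for PARP4. FKBP1AP1, a relative of the gene for the immunophilin FKBP12, had 2 of 5 and 3 of 3, against 1 of 35 and 0 of 3 for FKBP1A.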
